A study of Nicotiana tabacum with 6 samples.

Results

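Seeds that overexpress heat stress factor A9 were set beside seeds that overexpress heat stress factor A4a, for the genes that the deposited tables list with both factors. The members were genes of the A9up set, which are higher with A9 both in seeds and in seedlings, that are also in a table of genes higher or lower with A4a in seeds. They were kept where the FPKM (fragments mapped to a transcript, scaled to its length and to the size of the library) was 1 or more in at least 1 of the 2 transgenic seed libraries. This gave 741 of the 2618 shared genes, out of 4755 identifiers of the A9up set. Of the 741 genes, 418 were listed as higher and 323 as lower in DS10:A4a than in nontransgenic seeds.

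The plants were tobacco of the Xanthi variety. DS10:A9 and DS10:A4a are sunflower A9 and A4a driven by DS10, a seed-specific promoter, and each transgenic (T) material was paired with nontransgenic (NT) siblings that segregated from the same lines. All 4 seed libraries came from seeds imbibed for 1 day, in the dark, and a further T and NT pair from 3-week-old seedlings with A9 under the constitutive 35S promoter. Every library was a pool of 4 RNA samples, sequenced 2 times, so that each condition has 1 value and replicates are lacking for every comparison. The lines carry single homozygous integrations at different positions, tobacco seeds also hold their own heat stress factors, and the levels of the transgenes themselves were not analysed here. These are bulk libraries, in which fewer cells of a type and less RNA per cell cannot be told apart.

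Heat stress factors are transcription factors that bind heat stress elements in promoters. The best known targets are genes of small heat shock proteins (sHSPs), which hold unfolding proteins in a soluble state, and of the larger chaperones that refold them. A9 is a factor of the seed developmental programme, where it acts without heat, and A4a is a class A factor that can work together with A9. Young seedlings need a further programme in light, which includes photosystem proteins and flavonoid pigments that screen ultraviolet light.

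The quantities below were compared for each gene, all on the log2 scale. The fold of a factor is the T over the NT FPKM of its own comparison. The T level ratio is the DS10:A9 over the DS10:A4a FPKM, in libraries that were normalized separately, the NT ratio is the same for their NT seeds, and the difference in fold is the fold with A9 minus the fold with A4a, which equals the T level ratio minus the NT ratio. The deposited p-values gave depths of about 11600000 fragments in DS10:A9 seeds, 11400000 in their NT seeds and 16300000 in each library of the DS10:A4a comparison. A transcript of 1 kb with an FPKM of 1 was thus read by 10.9 fragments in DS10:A9 and by 15.3 in DS10:A4a seeds. The 95% counting intervals given below rest on these fragments. They cover counting error in single pools and not the spread between plants or lines, and a threshold of 0.6 is used only to count genes. The tables themselves were selected at 0.6 for higher genes and at -0.5 for genes lower with A4a.

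Most members were weakly expressed. The highest T FPKM was under 5 in 341 of the 418 genes higher with A4a and in 273 of the 323 lower genes. In the first group the median FPKM was 0.62 in NT seeds and 1.78 in DS10:A9 seeds and 0.73 in NT seeds and 1.67 in DS10:A4a seeds. In the second it was 0.76 and 1.96 in the DS10:A9 comparison and 1.48 and 0.75 in the DS10:A4a comparison. The genes nearest the minimum were gene_21658 and gene_23965, kept at 0.93 and 0.70 in DS10:A9 and 1.00 in DS10:A4a seeds, and gene_79791 and gene_20403, left out at 0.71 and 0.98 and at 0.99 and 0.56. In the table of lower genes they were gene_24900 and gene_57512, kept at 1.00 in DS10:A9 seeds, and gene_54790 and gene_74282, left out at 0.99.

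Among the 418 genes higher with both factors, the levels reached in the DS10:A9 and DS10:A4a seeds were on balance alike. The median T level ratio was -0.05, with a central 50% of genes from -0.74 to 0.68. It was 0.6 or more in 115 genes (27.5%; 27.8% of all 1320 shared genes of this table) and -0.6 or less in 120 (28.7%; 24.9% of all). These shares are near those of the whole table and say nothing particular of the members. The counting interval excluded 0 for 52 of the 115 and 60 of the 120.

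Over all these genes, most of them weakly expressed, the NT libraries differed almost as often as the T libraries. Of the 342 genes above 0 in all 4 libraries, 51.5% had a T level ratio of at least 0.6 in size, and 45.0% had an NT ratio of that size. The NT ratio was 0.6 or more in 60 and -0.6 or less in 94 of them, with a median of -0.18. In the 34 genes with a highest T FPKM of 20 or more, the shares were 47.1% for the T and 23.5% for the NT libraries. A ratio of T levels alone therefore does not separate the factor from the comparison it was measured in, and the difference in fold is given beside it.

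**Figure D1:**
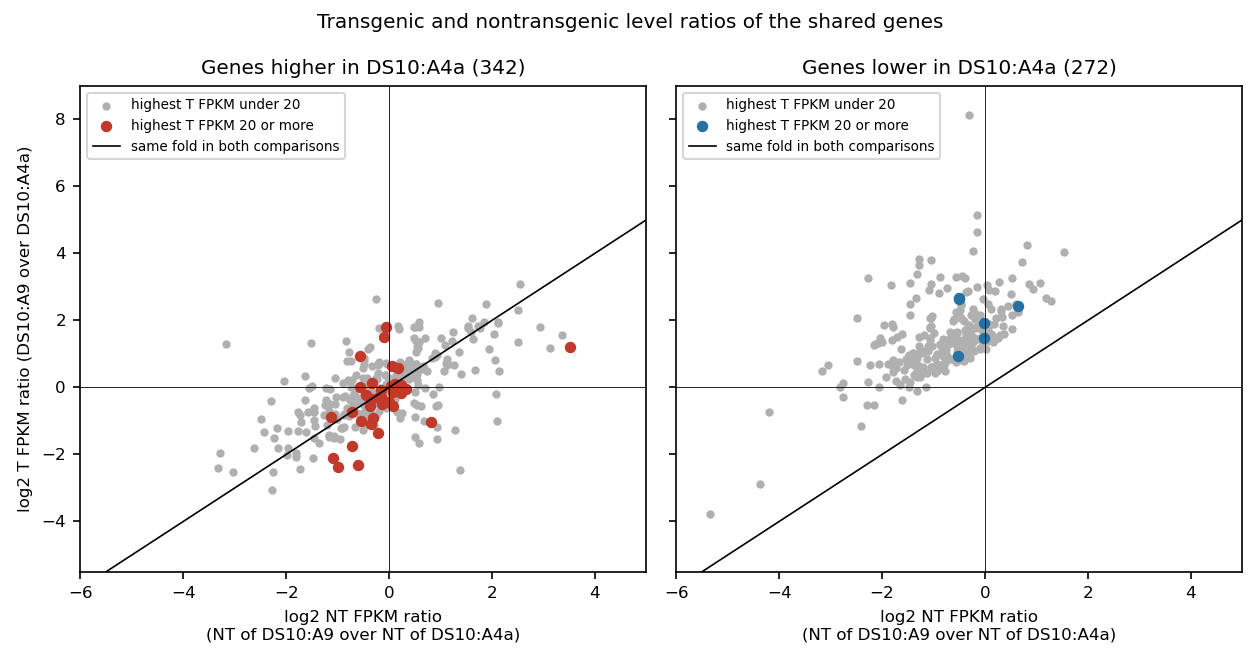
Each point is a gene above 0 in all 4 seed libraries, with the log2 ratio of the NT libraries on the horizontal and that of the T libraries on the vertical axis, for genes higher (left, 342) and lower (right, 272) in DS10:A4a seeds. Points on the diagonal have the same fold in both comparisons, and in the left panel the points lie around it (median difference in fold 0.06), while in the right panel all lie above it, as the selection of the table requires.

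The folds of these genes with A9 and with A4a were of like size. The median fold was 1.16 with A9 and 1.01 with A4a, both selected to be above about 0.6, and the median difference in fold was 0.06. Of the 342 genes, 76 had a difference of 0.6 or more, that is a larger fold with A9 (22.2%; 22.1% of all 665 shared genes of the table above 0 in all 4 libraries). A further 48 had a difference of -0.6 or less (14%; 16.1% of all), and 218 lay between. The counting interval of the difference included 0 for 303 genes, lay above 0 for 16 and lay below 0 for 23. Both folds had intervals above 0 in 129 genes (37.7%; 20.9% of all), in a table that was selected on these folds.

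Among the more abundant genes the T level was more often higher in DS10:A4a seeds, while the difference in fold leaned to A4a in the most abundant group and not in the middle one. With a highest T FPKM of 5 to under 20 (43 genes), 4 had a T level ratio of 0.6 or more and 21 of -0.6 or less. By the difference in fold these were 5 and 7, at a median of 0.11. With 20 or more (34 genes), these were 5 and 11, and 3 and 10 by the difference in fold, at a median difference of -0.17. The NT ratio of these groups leaned the same way, with medians of -0.45 and -0.17, and its part in the T level ratio was not tested. All 34 genes of the highest group had both folds with intervals above 0. The boundaries of 5 and 20 were chosen with the values known.

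**Figure D2:**
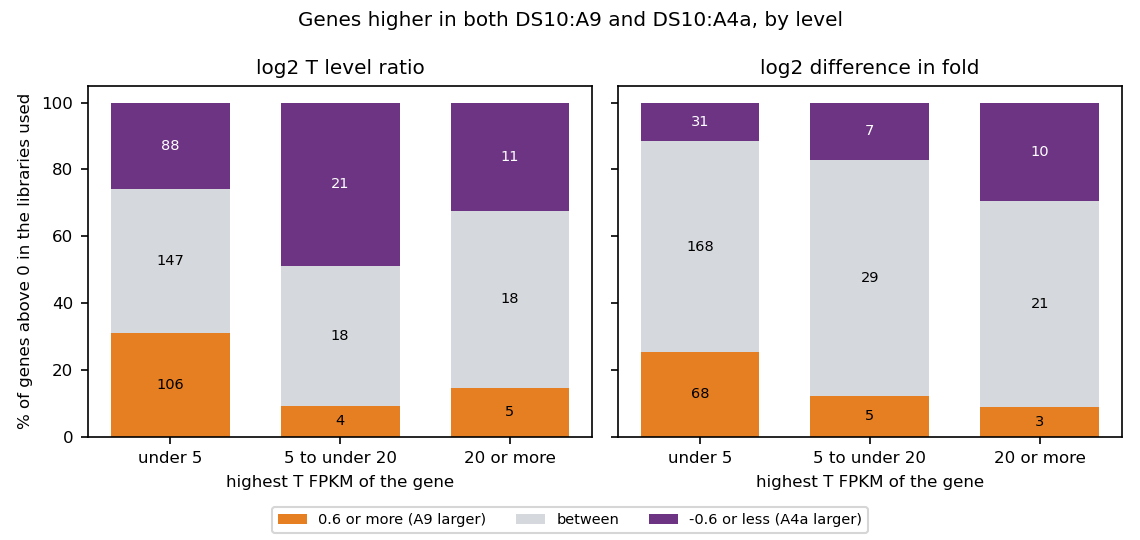
Stacked bars give the share of genes higher with both factors whose log2 T level ratio (left) or difference in fold (right) was 0.6 or more, between, or -0.6 or less, by the highest T FPKM of the gene; numbers inside the bars are genes. The part at -0.6 or less, where A4a is larger, is 21 of 43 and 11 of 34 genes in the upper groups on the left, against 88 of 341 in the lowest.

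The 7 sHSP genes among the members were all higher with both factors and included the most abundant transcripts of the comparison. The mitochondrial gene HSP26.5 M (gene_25232), for a chaperone of the mitochondrial matrix, was at an FPKM of 139.9 in NT seeds and 1133 in DS10:A9 seeds, and at 145 in NT seeds and 321 in DS10:A4a seeds. Its NT values were close and the DS10:A9 library stood far above the other 3. The difference in fold was 1.87 (counting interval 1.77 to 1.98), and the interval was the narrowest of the differences of 0.6 or more. Another gene with the same description, gene_81743, was at 23.6 and 47.4 in the DS10:A9 comparison and at 20.01 and 52.9 in the DS10:A4a comparison. Here the T libraries were nearly level and the difference was -0.39 (-0.67 to -0.12), of the opposite sign to that of HSP26.5 M.

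Of the 3 cytosolic class I sHSP genes, a main class of chaperones in seeds and in heat-stressed leaves, 2 had folds of the same size with both factors within counting error. For HSP18.2 CI (gene_79900) the FPKM was 232 and 465 in NT and DS10:A9 seeds and 264 and 569 in NT seeds and DS10:A4a seeds. The gene gene_2804, of the same description, was at 148 and 279 and at 137 and 258. In each pair the T value was close to 2 times the NT value, with differences in fold of -0.10 (-0.21 to 0.00) and 0.00 (-0.12 to 0.13). The class I gene gene_66148 was at 92.4 and 196 with A9 and at 81.9 and 130.2 with A4a, a difference of 0.41 (0.24 to 0.59).

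Both 22.0 kDa sHSP genes had a larger fold with A9. HSP22.0 CIV (gene_67564), of class IV, a type found in the endoplasmic reticulum, was at an FPKM of 4.55 and 19.9 in NT and DS10:A9 seeds and at 7.10 and 15.5 in NT seeds and DS10:A4a seeds. The T levels were close and the larger fold with A9, by 1.00 (0.53 to 1.47), went with a lower NT value in that comparison. The 22.0 kDa gene gene_28690 was at 24.6 and 61.8 and at 23.8 and 39.8, a difference of 0.58 (0.33 to 0.85). Over the 7 sHSP genes the median difference in fold was 0.41, against 0.06 over all members of this table. Of the 7, 2 differences were 0.6 or more and none -0.6 or less.

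Of genes described as larger chaperones, which use ATP to refold or untangle proteins, 2 were members, and they differed in opposite directions. The genes described as Mediator subunit 37a, a name of HSP70-type chaperones in Arabidopsis, are not counted here and were lower with A4a. The HSP90-type gene HSP83 (gene_36751) was at an FPKM of 6.34 and 12.4 in NT and DS10:A9 seeds and at 3.59 and 25.6 in NT seeds and DS10:A4a seeds. It was highest in DS10:A4a seeds and lowest in their NT seeds, and the difference in fold was -1.86 (-2.24 to -1.49). The disaggregase gene ClpB1 (gene_67542), of the HSP101 type, was at 0.52 and 2.63 with A9 and at 0.46 and 0.73 with A4a. Its difference of 1.67 had an interval from -0.07 to 3.56, and its NT values rest on 7 and 10 fragments. The single DnaJ cochaperone, dnaJ 13 (gene_52305), had 2 to 6 fragments in each library.

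The 4 partners and regulators of the heat stress response had higher levels in the DS10:A4a comparison, at a median T level ratio of -0.78 and a median NT ratio of -0.46. The BAG6 genes gene_74413 and gene_70529, for a calmodulin-binding cochaperone regulator, were at 215 and 377 and at 184 and 352 in NT and DS10:A9 seeds. In NT and DS10:A4a seeds they were at 277 and 551 and at 205 and 431. Both genes were about as much higher in each T library, with differences in fold of -0.18 (-0.23 to -0.13) and -0.14 (-0.18 to -0.09). Each gene had at least 7105 fragments in every library, so that even these small differences exclude 0 by counting error alone.

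The gene of the multiprotein-bridging factor MBF1c (gene_84717), a coactivator of the heat response in Arabidopsis, was at an FPKM of 24.02 and 42.6 in NT and DS10:A9 seeds. It was at 35.1 and 85.7 in NT seeds and DS10:A4a seeds, a difference in fold of -0.46 (-0.76 to -0.17). Its level was thus highest in DS10:A4a seeds, with both values of that comparison above their counterparts. Heat stress factor B-3 (gene_84967) had 1 and 5 fragments in the DS10:A9 comparison and 14 and 37 in the other.

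**Figure D3:**
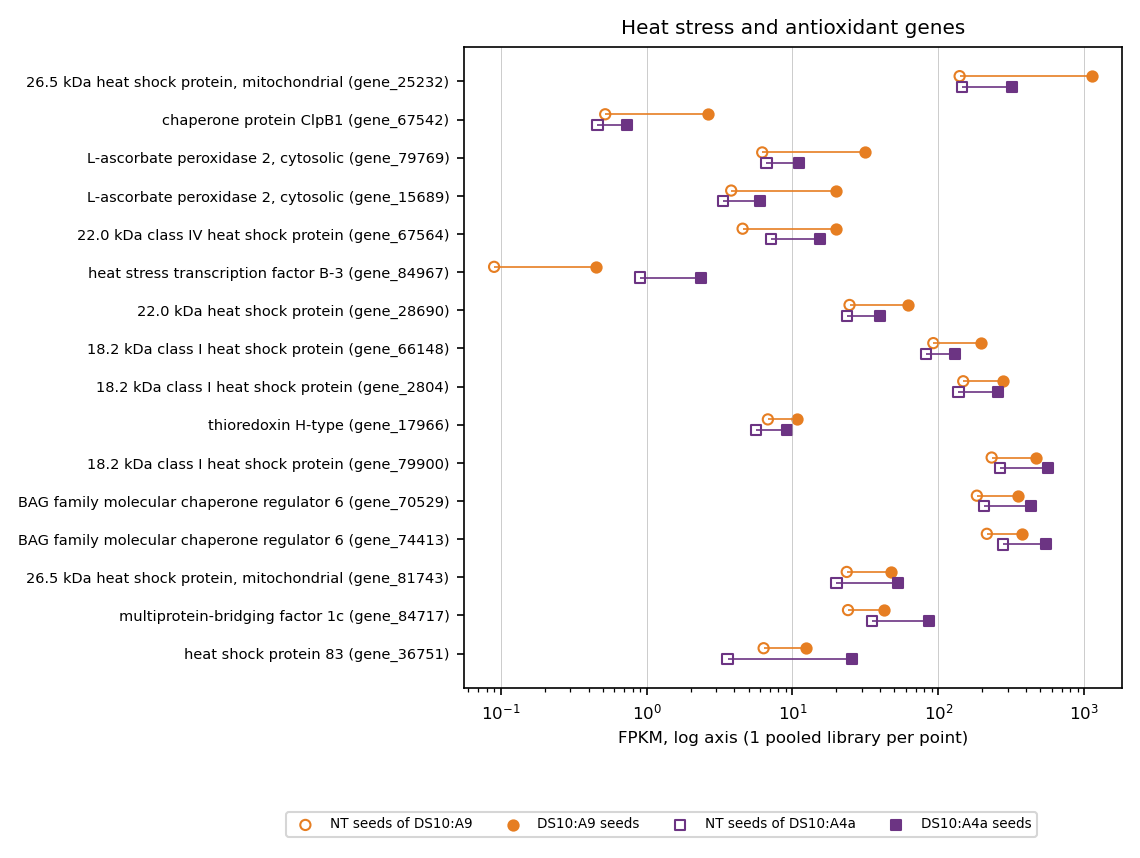
FPKM on a log axis of 16 heat stress and antioxidant genes in the 4 seed libraries, with open symbols for NT and filled symbols for T, circles for the DS10:A9 and squares for the DS10:A4a comparison, and genes ordered by the difference in fold. HSP26.5 M, at 1133 in DS10:A9 and 321 in DS10:A4a seeds, and both ascorbate peroxidase genes have the longer line with A9, and HSP83 has it with A4a.

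Of the 3 antioxidant members, 2 had a larger fold with A9. Cytosolic ascorbate peroxidase 2, which reduces hydrogen peroxide to water, was represented by gene_15689 and gene_79769. The first was at an FPKM of 3.80 and 19.99 in NT and DS10:A9 seeds and at 3.34 and 6 in NT seeds and DS10:A4a seeds. The second was at 6.20 and 31.3 and at 6.63 and 11.01. The NT values were close, and the DS10:A9 library was the highest for both genes. The differences in fold were 1.55 (0.93 to 2.17) and 1.60 (1.13 to 2.09). Thioredoxin H (gene_17966), a small disulfide reductase, had a difference of -0.05 (-0.86 to 0.76).

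Other genes with a larger fold with A9 included ones of mitochondrial and plastid proteins. Subunit 9 of the cytochrome b-c1 complex (gene_19949), a part of the respiratory chain, was at an FPKM of 6.67 and 32.4 in NT and DS10:A9 seeds and at 9.85 and 16.9 in NT seeds and DS10:A4a seeds. The difference was 1.504 (0.79 to 2.27), and the T level was also higher with A9, by 0.94. Plastidial pyruvate kinase 4 (gene_55789), which feeds plastid fatty acid synthesis, was at 0.03 and 1.2 and at 0.27 and 0.49. Its difference of 4.46 (1.69 to 9.91) rests on 1 fragment in NT beside DS10:A9. The SMEK1 homologue gene_7543, a regulatory subunit of a protein phosphatase, had close T levels of 3.38 and 2.65, and its difference of 1.98 (1.036 to 3.09) came with NT values of 0.50 and 1.55.

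Photosynthesis genes were on both sides. RuBisCO activase, which clears inhibitors from the enzyme of carbon fixation, had members gene_62894 and gene_72548. The first was at an FPKM of 0.12 and 5.49 in NT and DS10:A9 seeds and at 0.08 and 1.41 in NT seeds and DS10:A4a seeds, and the second at 0.16 and 4.22 and at 0.19 and 0.67. Both were highest in DS10:A9 seeds, by T level ratios of 1.96 and 2.65 (1.91 to 3.48), while the differences in fold were 1.38 (-2.26 to 5.03) and 2.90 (0.49 to 5.63).

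FtsH proteases degrade damaged photosystem proteins in chloroplasts, and the gene gene_22233 of this type was at 2.30 and 8.39 in NT and DS10:A9 seeds and at 2.66 and 21.6 in NT seeds and DS10:A4a seeds. With close NT levels it was highest in DS10:A4a seeds, at a difference in fold of -1.16 (-1.62 to -0.69). The 10 kDa protein of photosystem II had one gene on each side. For gene_38985 the FPKM was 22.5 and 52.3 with A9 and 21.2 and 76.1 with A4a, and for gene_70553 it was 16.6 and 47.1 and 24.5 and 47.0. The T levels of the second gene were equal, and the differences were -0.63 (-0.98 to -0.27) and 0.56 (0.18 to 0.96). Of the 5 photosynthesis genes of this table above 0 in all libraries, 2 had a difference of 0.6 or more and 2 of -0.6 or less.

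Every one of the 7 raffinose family genes was higher with both factors, and all carry the same description, galactinol-sucrose galactosyltransferase 2, the enzyme of raffinose synthesis. The most abundant, gene_46029, was at an FPKM of 2.11 and 12.4 in NT and DS10:A9 seeds and at 2.81 and 12.2 in NT seeds and DS10:A4a seeds. The next, gene_46027, was at 1.27 and 7.12 and at 1.5 and 5.99. The T levels of both genes were close, with T level ratios of 0.02 (-0.44 to 0.47) and 0.25 (-0.04 to 0.54), and the differences in fold, 0.43 (-0.71 to 1.66) and 0.49 (-0.23 to 1.22), included 0. Of the other 5 genes, gene_37473, gene_37475 and gene_79377 were listed at 0 in an NT library. With sucrose-phosphate synthase 2 (gene_60017), at 3.20 in DS10:A9 and 1.22 in DS10:A4a seeds, the sugar and starch list held 8 genes, all of this table.

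The genes with a larger fold with A4a included, beside HSP83 and FtsH, ones of detoxifying enzymes, a transporter and sulfur metabolism. UDP-glycosyltransferase 73C1 (gene_1107), which adds sugar to small molecules, was at an FPKM of 7.16 and 11.1 in NT and DS10:A9 seeds and at 14.3 and 57.2 in NT seeds and DS10:A4a seeds. Even the NT level of the DS10:A4a comparison lay above the DS10:A9 T level, and the difference in fold was -1.37 (-1.68 to -1.06). The cytochrome P450 gene CYP72A219 (gene_50242), of an oxidising enzyme family, was at 1.90 and 4.21 and at 2.90 and 21.0, a difference of -1.71 (-2.61 to -0.77). Another gene of that description, gene_64211, also higher with both factors, had a difference of 0.07.

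The metal transporter gene Nramp6 (gene_64089) was at 0.99 and 1.86 in NT and DS10:A9 seeds and at 0.66 and 5.88 in NT seeds and DS10:A4a seeds. Only the DS10:A4a library stood apart, and the difference in fold was -2.25 (-3.14 to -1.38). ETHE1 (gene_86827), the persulfide dioxygenase of mitochondrial sulfur breakdown, was at 3.32 and 5.77 and at 7.02 and 24.9. The difference was -1.03 (-1.75 to -0.31), while a second ETHE1 gene, gene_31683, had one of 0.18 (-1.22 to 1.67). The transcription factor gene WRKY40 (gene_64794), a stress regulator, was at 2.26 and 4.11 and at 3.21 and 10, a difference of -0.78 (-1.48 to -0.06). The most abundant members with a difference of -0.6 or less had no named product. They were gene_39269, at 56.1 and 85.9 with A9 and at 69.9 and 163 with A4a, and gene_72713, at 30.9 and 49.7 and at 39.3 and 105.

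Several abundant genes outside the heat stress lists also had a difference in fold whose interval included 0. Subunit 6B of RNA polymerases II and V, which transcribe messenger RNA and silencing transcripts, was represented by gene_40221 and gene_40196. The first was at an FPKM of 17.1 and 55.7 in NT and DS10:A9 seeds and at 37.2 and 101.9 in NT seeds and DS10:A4a seeds, and the second at 9.68 and 38.3 and at 8.20 and 36.0. The folds were alike within each gene although gene_40221 lay lower in both libraries of the DS10:A9 comparison. The differences were 0.25 (-0.12 to 0.62) and -0.15 (-0.93 to 0.64). The histidine kinase CKI1-like gene_73802, at 41.0 and 52.4 in the T libraries, had a difference of -0.03 (-0.18 to 0.12), and nudix hydrolase 17 (gene_46063), at 37.0 and 40.2, had one of -0.19 (-0.53 to 0.14).

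**Figure D4:**
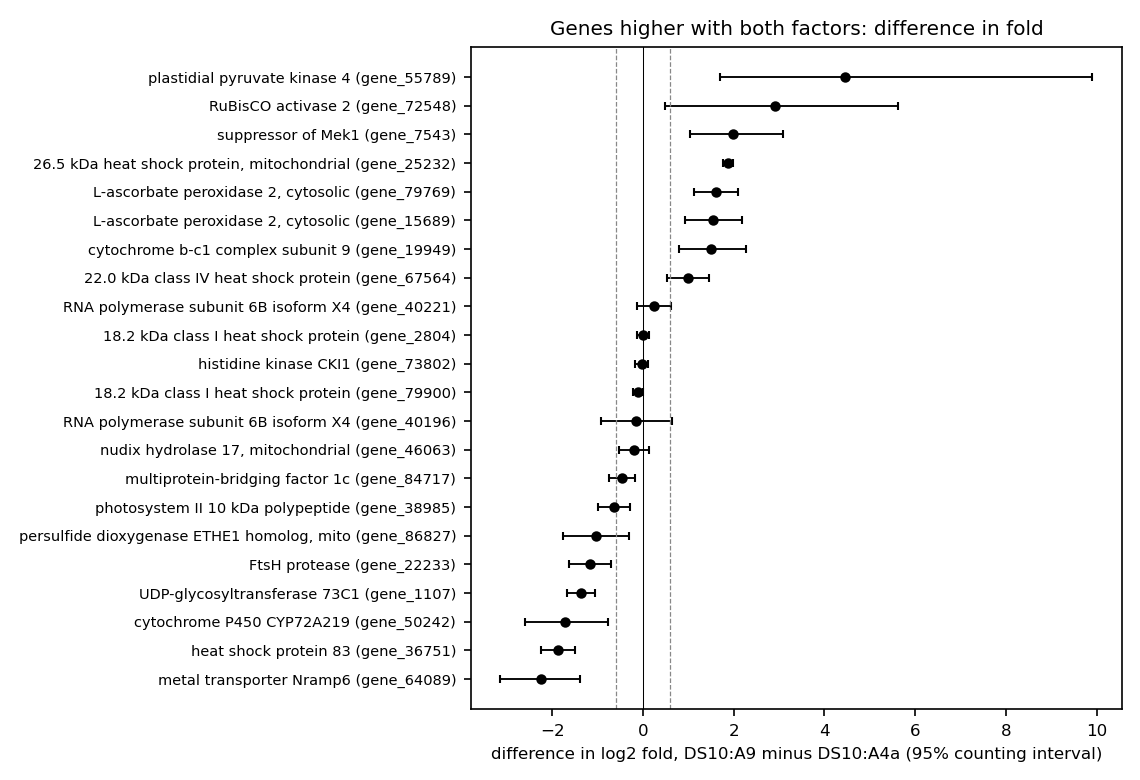
Points give the difference in log2 fold, DS10:A9 minus DS10:A4a, and bars its 95% counting interval, for 22 genes higher with both factors: 8 each with the interval farthest above and farthest below 0 among genes with a named product, and the 6 most abundant of these whose interval includes 0. Solid and dashed lines mark 0 and the thresholds of -0.6 and 0.6; the narrowest interval far from 0 is that of HSP26.5 M, 1.77 to 1.98.

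The 323 genes listed as lower with A4a had, by their selection, folds of opposite sign with the factors. The selection fixes a difference in fold of at least about 1.1, so 272 of 272 genes were past 0.6 (100% of all), and the observed range was 1.14 to 8.44 with a median of 2, so that neither the sign nor the size of this median is a finding. The median fold was 1.11 with A9 and -0.86 with A4a. Both intervals excluded 0 in 66 of the 272 genes above 0 in all libraries (24.3%; 10.6% of all 671 such shared genes). The T level was 0.6 or more higher in DS10:A9 seeds in 250 of 295 genes above 0 in both T libraries (84.7%; 67.2% of all 957) and 0.6 or more lower in 8 (2.71%; 4.39% of all). Beside it, the NT ratio was -0.6 or less in 144 of 289 genes and 0.6 or more in 17, with a median of -0.60. The typical gene of this table thus started lower in NT beside DS10:A9 and ended higher in its T seeds, in values that were used to select it. Most of these members also passed the FPKM minimum through DS10:A9 seeds, with a median of 1.96 there and 0.75 in DS10:A4a seeds. The excess of 84.7% over 67.2% is therefore in part built in. With the minimum required in both T libraries the median T level ratio was 0.96, against 1.39.

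Flavonoid and phenylpropanoid synthesis was the list with most members of opposite direction. Of its 18 members, 15 were lower with A4a, and both intervals were clear of 0 for all 15, against 66 of 272 over the table. Over the table this rose with abundance, from 32 of 222 genes with a highest T FPKM under 5. It was 28 of 44 at 5 to under 20 and 6 of 6 at 20 or more, and the list was not matched for abundance. The 15 genes include enzymes of the entry from phenylalanine and of the flavonol and anthocyanin branches. Phenylalanine ammonia-lyase (PAL), the entry enzyme, had 3 genes. The gene gene_12758 was at an FPKM of 6.11 and 12.4 in NT and DS10:A9 seeds and at 8.12 and 3.10 in NT seeds and DS10:A4a seeds, gene_65313 at 7.58 and 11.4 and at 6.81 and 4.48, and gene_35620 at 0.99 and 2.09 and at 1.10 and 0.59. In each the DS10:A9 library was the highest and the DS10:A4a library the lowest, an order partly fixed by the selection of the table.

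Chalcone synthase, the first enzyme of the flavonoid branch, had 4 genes. The chalcone synthase 1 genes gene_5201 and CHS (gene_77491) were at an FPKM of 11.3 and 29.2 and of 10.98 and 28.5 in NT and DS10:A9 seeds. In NT and DS10:A4a seeds they were at 15.9 and 4.58 and at 15.6 and 4.57. The values of these genes were nearly the same in every library, and reads of near-identical copies may be divided between them. The T level ratios were 2.67 (2.35 to 3.00) and 2.64 (2.32 to 2.97). The other pair, gene_39003 and gene_48293, reached 5.28 and 4.55 in DS10:A9 and 1.28 and 0.92 in DS10:A4a seeds.

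The next steps had the same order of libraries. Chalcone isomerase 3, of a family that closes the flavonoid ring or assists in it, was represented by gene_25901, at an FPKM of 0.87 and 3.15 with A9 and at 2.18 and 0.30 with A4a, and gene_71101, at 0.54 and 2.02 and at 0.63 and 0.12. They had the largest differences in fold of the list, 4.72 (2.83 to 7.11) and 4.30 (1.64 to 7.84), from 4 and 2 fragments in DS10:A4a seeds. Flavonol synthase (FLS, gene_8049), which makes flavonols, was at 4.13 and 7.91 and at 5.88 and 1.78. A gene of flavonol synthase or flavanone 3-hydroxylase, gene_29551, was at 4.18 and 7.70 and at 6.43 and 1.95. In both the DS10:A4a value was the lowest of 4 and the DS10:A9 value the highest, again in part by selection.

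Dihydroflavonol reductase (DFR, gene_26836), the step to anthocyanins, was at an FPKM of 3.01 and 5.56 in NT and DS10:A9 seeds and at 2.09 and 1.23 in NT seeds and DS10:A4a seeds. The 3 genes of anthocyanidin 3-O-glucosyltransferase, which adds the sugar, were at 5.15 to 7.91 in DS10:A9 and at 1.25 to 1.67 in DS10:A4a seeds. Over the 15 genes the median fold was 0.94 with A9 and -1.71 with A4a, against 1.11 and -0.86 over all members of the table. The gene nearest in name in the other table, flavanone 3-hydroxylase (gene_819), was higher with both factors, at 5.13 and 11.1 and at 8.34 and 13.3, with a difference in fold of 0.45 (-0.03 to 0.94).

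**Figure D5:**
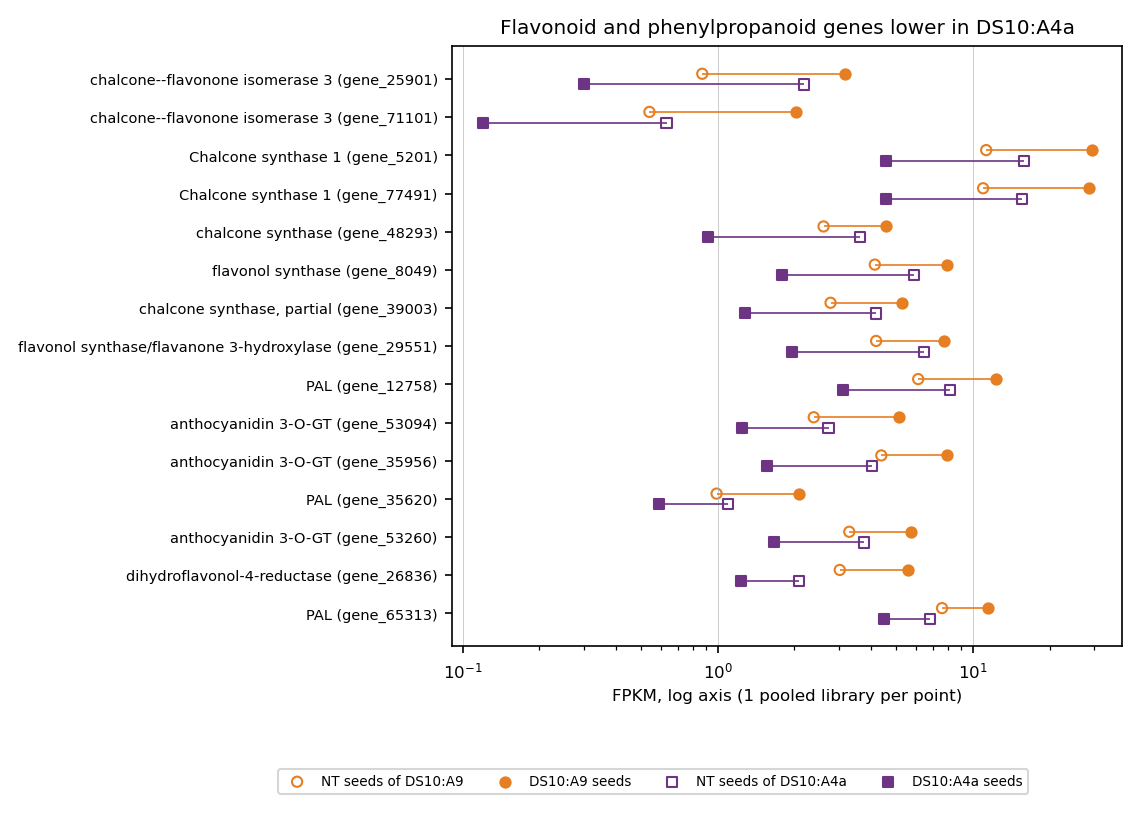
FPKM on a log axis of the 15 flavonoid and phenylpropanoid genes lower in DS10:A4a seeds, in the 4 seed libraries; open symbols are NT and filled symbols T, circles the DS10:A9 and squares the DS10:A4a comparison. In every gene the DS10:A9 seeds are the highest and the DS10:A4a seeds the lowest, as for gene_5201 at 29.2 and 4.58. The selection of the table fixes the order within each comparison, and only the order across the comparisons is free.

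Regulators of light responses and of flavonoid genes were in the same table. HY5, a bZIP factor that promotes growth in light and binds promoters of flavonoid genes in Arabidopsis, had 2 genes. The more abundant, gene_78854, was at an FPKM of 5.80 and 9.29 in NT and DS10:A9 seeds and at 5.55 and 2.76 in NT seeds and DS10:A4a seeds, a T level ratio of 1.75 (1.23 to 2.28). The other, gene_57696, was at 1.14 and 3.33 and at 2.40 and 1.25, from 7 to 21 fragments, with a ratio of 1.41 (0.26 to 2.66). MYB12-like (gene_14792), of a family that activates flavonol synthesis in Arabidopsis, was at 1.30 and 3.49 and at 1.08 and 0.39. Its T level ratio of 3.16 was the largest of the 3 regulators.

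A B-box gene described by the Arabidopsis locus At1g75540 (gene_33454), whose product is a partner of HY5 there, was at 1.51 and 3.76 and at 2.15 and 1.41. Another gene with that description, gene_56646, was in the other table, at 0.37 and 1.77 with A9, and at 0 and 3 fragments with A4a. The CONSTANS-like 2 gene gene_310, of the same light signalling list, was higher with both factors, at 1.57 and 1.2 in the T libraries from 20 and 23 fragments. The MADS-box gene AGL27 (gene_48131), of a family of flowering regulators, was at 2.48 and 4.38 and at 3.18 and 1.49. Over the 24 transcription factor members, 11 were higher and 13 lower with A4a. All 13 lower ones had a T level ratio of 0.6 or more, beside 84.7% of all members of that table. Of the 11 higher ones, 6 had a ratio of -0.6 or less and 2 of 0.6 or more, beside 28.7% and 27.5% of all members of theirs. The latter included a BED zinc finger gene described as RICESLEEPER 4-like (gene_5250), with 0 and 1 fragments in the DS10:A4a comparison.

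The most abundant members lower with A4a were gene_6664 and gene_60513, described as Mediator subunit 37a, a name that in Arabidopsis belongs to chaperones of the HSP70 type. The first was at an FPKM of 51.3 and 83.1 in NT and DS10:A9 seeds and at 52.2 and 21.8 in NT seeds and DS10:A4a seeds. The second was at 27.01 and 44.9 and at 17.4 and 8.4. The NT values of the first gene were close, and the selection of the table puts the T libraries on opposite sides of them. The T level ratios were 1.93 (1.68 to 2.18) and 2.42. Mediator subunit MED18 (gene_8328), which links regulators to RNA polymerase, was at 0.33 and 2.38 and at 1.14 and 0.68, from 2 to 15 fragments.

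Glycosyltransferases, cytochromes P450 and class III peroxidases, enzymes of plant secondary metabolism, had 13 members lower and 5 higher with A4a. The UDP-glycosyltransferase 73C3 genes gene_55057 and gene_65913 were at an FPKM of 14.01 and 22.9 and of 7.87 and 12.2 in NT and DS10:A9 seeds. They were at 20.04 and 12.04 and at 10.5 and 6.12 in NT seeds and DS10:A4a seeds, opposite to the 73C1 gene described above. Glycosyltransferase 7 (gene_37813) was at 3.34 and 9 and at 9.51 and 5.63, where the NT value of the DS10:A4a comparison was the highest of the 4. Cytochrome P450 98A2 (gene_35235), of the family that makes caffeic acid derivatives, was at 2.01 and 3.17 and at 2.67 and 1.2. Of the 13 genes, 11 had both intervals clear of 0, beside 24.3% of the members of the table and 10.6% of its shared genes. These shares depend on abundance and were not matched for it. Among members they were 14.4% with a highest T FPKM under 5 and 63.6% at 5 to under 20.

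Other members of opposite direction included a karrikin receptor, protein phosphatases and a light-harvesting protein. The esterase KAI2 (gene_70311), a receptor for karrikins of smoke, which promote germination and light responses in Arabidopsis, was at an FPKM of 0.75 and 3.41 in NT and DS10:A9 seeds and at 1.11 and 0.35 in NT seeds and DS10:A4a seeds. Its T level ratio was 3.28 (2.05 to 4.82). Protein phosphatase 2C 34 had gene_72740 at 4.12 and 8.19 and at 3.33 and 1.60, and gene_77488 at 0.65 and 3.83 and at 0.37 and 0.20. In both the DS10:A9 library was the highest of the 4, which the selection of the table fixes in part. The chlorophyll a/b binding protein 40 (gene_16917), of the light-harvesting antenna, was at 0.55 and 2.85 and at 1.81 and 1.01, a T level ratio of 1.497 (0.74 to 2.35).

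Growth-related genes of this table were few. Histone H3.2 (gene_63552) was at 3.36 and 8.99 in NT and DS10:A9 seeds and at 5.24 and 3.52 in NT seeds and DS10:A4a seeds, and the replication licensing factor MCM3 (gene_38149) at 1.57 and 2.62 and at 1.90 and 1.13. Gibberellin 20-oxidase (gene_83238), which makes precursors of active gibberellins, was at 0.73 and 2.19 and at 0.86 and 0.43. Each had its highest value in DS10:A9 and its lowest in DS10:A4a seeds, except that histone H3.2 was lowest in NT beside DS10:A9. The selection of the table fixes this order in part.

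The remaining lists split between the tables. Of the 363 members with a described product, 59.0% were higher with A4a, which is the value to set beside each list. Members higher and lower with A4a were 19 and 13 among transporters, 12 and 9 for ubiquitin and proteolysis, 8 and 3 for pentatricopeptide repeat proteins and 5 and 8 for kinases and calcium sensors. They were 6 and 3 for retrotransposon-derived proteins, 4 and 5 for lipid metabolism, 4 and 5 for Mediator, RNA polymerase and splicing, 4 and 2 for the cell wall, 4 and 1 for histones and chromatin, 3 and 2 for disease resistance, 2 and 5 for the cell cycle, 2 and 4 for growth hormones, 2 and 2 for abscisic acid and 1 and 2 for ribosome and translation. The lists go by words in the descriptions, so that Mediator subunit 37a counts under Mediator. Likewise, the retrotransposon list holds a telomerase reverse transcriptase (gene_42674), and the transporter list a chromatin-remodelling ATPase (gene_52521). The proteolysis list holds proteinase inhibitors (gene_27772, gene_28924 and gene_56481), and the abscisic acid list a protein phosphatase 2C whose description names no hormone (gene_19704). No member was in the lists of chlorophyll and carotenoid synthesis or of LEA, storage and oil-body proteins. The latter are the defining genes of seeds, and the tables hold only genes that passed a fold threshold, so the labelled tissue could not be checked on them. In the DS10:A4a tables this list had 11 genes, at a median FPKM of 0.21 in NT seeds. Only 1 was at 10 or more there, an oleosin (gene_77511) at 18.1. The photosynthesis and RuBisCO list, of green tissue, had 122 genes in these tables, at a median of 0.25 in NT seeds. Of these, 5 were at 10 or more, the highest at 56.05.

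Genes described alike were mostly in the same table. Of 38 descriptions shared by 2 or more members, 23 had all genes higher with A4a, 10 had all genes lower and 5 had genes in both tables. They cover 85 genes, which are copies or fragments of related transcripts and are not independent. The sets with genes in both tables included the endoplasmic calcium ATPase 3, of which gene_82064, lower with A4a, was at 3.03 and 2.26 in the T libraries, and gene_82061, higher with A4a, rested on 0 and 1 fragments in the DS10:A4a comparison.

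Zeros limited the folds of many members. Among the genes higher with both factors, 58 had a 0 in NT beside DS10:A9 and 40 in NT beside DS10:A4a. Among the genes lower with A4a, 34 were at 0 in the former and 28 in DS10:A4a seeds. An FPKM listed at 0 allows up to 3 fragments, and no fold is given against it. Of those with a named product, some with the highest T FPKM rested on few fragments. The G patch gene gene_25694 had 1 fragment in DS10:A9 and 7 in DS10:A4a seeds, with 0 in both NT libraries. The kinetochore gene NDC80 (gene_6921) had 4 in DS10:A9 seeds, 0 in their NT and in DS10:A4a seeds, and 1 in the NT seeds of the latter. More fragments lay behind counting factor 45-1 (gene_23294), with 0 and 1 fragments in the DS10:A9 and 2 and 44 in the DS10:A4a comparison.

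In seedlings with 35S:A9, where every A9up gene is higher by selection, members of both tables had like folds. The median fold was 1.32 in the 324 genes higher and 1.30 in the 265 genes lower with A4a that were above 0 in both seedling libraries. Among the genes with a highest T FPKM of 20 or more in seeds the medians were 2.42 (32 genes) and 3.63 (4 genes). FtsH protease (gene_22233) was at 0.15 in NT and 48.4 in 35S:A9 seedlings, ascorbate peroxidase 2 (gene_15689) at 13.5 and 318, and chalcone synthase 1 (gene_5201) at 0.58 and 15.2. These 3 genes had the larger fold with A4a, with A9, and the opposite direction in seeds, in that order, and their folds in seedlings were 8.33, 4.56 and 4.71.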

How the data were processed

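FPKM values were computed by the authors with RSEM 1.2.12 from reads mapped with Bowtie2 2.2.5, after HISAT 0.1.6 and StringTie 1.04 (versions from the submitters' processing notes) on the Ntab-BX assembly of Nicotiana tabacum. Each library was normalized separately, and an FPKM of 0 is deposited as 0.01. The deposited tables also give transcript lengths, the authors' fold changes, and p-values of a Poisson test. These fold changes are not used, and the p-values served only to recover depth. With NT at 0 the p depends on the T fragments alone, and taking 65 bases from each length gave whole fragments within 0.1% for 99.4% of 1762 genes in the DS10:A9 and 98.8% of 4672 in the DS10:A4a comparison.

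Genes of both seed comparisons were joined by identifier, since 1 block of each shared table pairs 2 identifiers. GEO's labels do not say which NT seed library belongs to which comparison, and the tables do. Lengths were the same in both comparisons for 589 members and differed for 152. Intervals are exact Clopper-Pearson 95% intervals of the fragments, combined for differences by the MOVER method, with SciPy 1.17.1 and pandas 2.3.3 in Python 3.11.15. With 1 pooled library per condition no test was possible. Calculations were tested on simulated data.

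The members, the 28 gene lists and the rule for named genes were chosen with earlier results of these data known, and patterns of some lists were corrected on the files' wording. The rule took, among members with a described product, the 8 genes with the highest lower and the 8 with the lowest upper bound of the difference in fold, the 6 most abundant whose interval includes 0, the 12 of opposite direction with the highest lower bound, 6 genes at 0 in NT, the 3 most abundant of each list, the genes nearest the FPKM minimum and the study's example genes. Other genes were named after their values were seen. Tobacco is allotetraploid, and reads may be divided between near-identical copies. Alternatives were the pseudocount, the FPKM minimum, the threshold, equal lengths and centring on NT.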

Additional observations from a re-analysis of the deposited data

How the results depend on the processing

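Of 80 alternative values of 12 results, 41 stayed within the limits set for an equal value, and 39 moved, among them 3 values of medians near 0, which changed sign. A pseudocount of 0.1 moved none past these limits, which allow some change. With it, among genes higher with both factors, 107 instead of 76 had a larger fold with A9 and 68 instead of 48 with A4a. For genes higher with both factors, the 115 genes with a T level ratio of 0.6 or more became 71 with a pseudocount of 1, 367 without an FPKM minimum, 9 with a minimum of 5, 44 with a minimum of 1 in both T libraries and 76 at a threshold of 1. The 120 genes on the other side became 329, 32, 55 and 79 under the last 4 of these. The 76 genes with a larger fold with A9 became 147, 8, 36 and 40, and the 48 with a larger fold with A4a became 107, 17 and 30 under the first 3 of those. The median T level ratio, -0.05, was 0.11 without a minimum, -0.43 with a minimum of 5 and 0.11 when centred on the NT libraries. The median difference in fold, 0.06, was -0.030 with a minimum of 5. The 129 genes with both intervals clear of 0 became 66 with a minimum of 5 and 80 with equal lengths.

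For genes lower with A4a, the 250 genes with a T level ratio of 0.6 or more became 643 without a minimum, 43 with a minimum of 5 and 90 with a minimum in both libraries. The 8 on the other side became 42, 2 and 1, and 5 with a pseudocount of 1 and 4 at a threshold of 1. The median T level ratio, 1.39, was 0.80 with a pseudocount of 1, 1.11 without a minimum, 0.96 with a minimum in both libraries and 1.55 when centred. The median difference in fold, 2, was 1.22, 2.21 and 1.77 under the first 3 of these, and 1.77 with a minimum of 5. The 66 genes with both intervals clear became 34 with a minimum of 5. Counts under other minimums are over other sets of genes by construction. No paired analysis was possible because each condition has 1 library.

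The main limit is that 1 pool stands for each condition, so that the spread between lines is unknown. Most genes are weakly expressed, and those higher with both factors had a median of 5 fragments in NT beside DS10:A9.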

Other observations

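Some members without a named product had extreme values. The gene gene_38449 had FPKM values of 0.13 and 14.1 in NT and DS10:A9 seeds and of 0.16 and 0.05 in NT seeds and DS10:A4a seeds, from 3, 345, 6 and 2 fragments. Its T level ratio of 8.14 was the highest of all members. The gene gene_2226, higher with both factors, was at 12.1 and 23.5 in the DS10:A9 comparison and at 1.06 and 10.2 in the DS10:A4a comparison, an NT ratio of 3.52. The gene gene_33821, lower with A4a, was at 0.21 and 0.40 and at 8.58 and 5.52, so that both libraries of the DS10:A4a comparison lay far above the other pair, at an NT ratio of -5.35.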
